A study of Mus musculus with 3 samples.

Results

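The EGF receptor family and its ligands were described here as 10 genes of the 47725 listed in the deposited tables. They were taken by symbol and comprise 3 receptors (Egfr, Erbb2, Erbb3), 6 ligands (Areg, Ereg, Hbegf, Btc, Tgfa, Nrg1) and Errfi1, a feedback inhibitor. RNA was sequenced from 3 mouse cultures, 1 library each, grown from embryonic stem cell lines named BEM (mutant in the E3 E-box site at the Barhl1 locus, a kind of motif that basic helix-loop-helix factors bind), BM (Barhl1 mutant) and WT (wild type). The exact mutations, and whether a line is 1 clone, are not given in the sources used here. Otic progenitors were cultured to day 9 on a layer of inactivated utricle stromal cells from chicken embryos, in medium that held 25 ng/ml EGF and 1 µM retinoic acid. All 3 cultures therefore received a ligand of the receptor described here from outside.

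The receptors of this family are tyrosine kinases that pair on binding a ligand and signal through RAS and ERK, PI3 kinase and other routes. Areg, Ereg, Hbegf, Btc and Tgfa encode membrane-anchored ligands of EGFR that metalloproteases cut free, and Nrg1 encodes neuregulin, a ligand of ERBB3 and ERBB4. ERBB2 has no known ligand of its own and acts as a partner, and ERBB3 has little kinase activity and signals through its partner. In the mammalian inner ear, EGF family ligands have been studied as growth factors for supporting cells, and neuregulin signalling links neurons with glia and supporting cells.

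The libraries held 23813123 reads in BEM, 20111794 in BM and 21555823 in WT, recovered from the deposited FPKM (reads corrected for gene length and sequencing depth). Barhl1, the gene at the targeted locus, was listed at 0.0107 FPKM in BEM, 95.1 FPKM in BM and 126.5 FPKM in WT, in values that did not correspond to whole reads. The BEM and BM libraries stood close together and WT stood apart. On the log2(FPKM + 0.5) scale 0.784% of the 12875 measured genes, those averaging 1 FPKM or more over the libraries, were 2-fold apart between BEM and BM, against 25.9% between BEM and WT and 25.8% between BM and WT. Of 10 hair cell markers 4 reached that level, namely Atoh1, Myo7a, Myo6 and Espn. Atoh1 was at 240.9 FPKM in BEM, 236.5 FPKM in BM and 270.2 FPKM in WT, values that also did not correspond to whole reads. Myo7a was at 9.83 FPKM in BEM, 9.79 FPKM in BM and 0.704 FPKM in WT. Espn went the other way, at 0.503 FPKM in BEM, 0.565 FPKM in BM and 2.08 FPKM in WT, and Myo6 was within 2-fold of WT. Pvalb was listed at 0 in all 3 libraries, Gfi1 at 0 in BEM and BM, Lhx3 at 0 in BEM and Otof at 0 in WT. With 1 library per line no difference has a replicate check, intervals cover counting error only, and genotype cannot be told apart from any other difference between the cultures. BEM and BM were both compared with the same WT library.

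Areg, Tgfa and Egfr were more than 2-fold lower in FPKM in both mutant libraries than in WT, and the bases before their start sites are shown because these 3 members share that difference. The windows cover 250 bases upstream in RefSeq's GRCm38.p6, 5′ to 3′ on the plus strand, at chr5:91139349-91139598 for Areg, chr6:86194972-86195221 for Tgfa and chr11:16751953-16752202 for Egfr. Capitals mark matches to CANNTG (the E-box), TGACGTCA (the cAMP response element) and TGANTCA (the AP-1 motif), letters that read the same on both strands.
Areg: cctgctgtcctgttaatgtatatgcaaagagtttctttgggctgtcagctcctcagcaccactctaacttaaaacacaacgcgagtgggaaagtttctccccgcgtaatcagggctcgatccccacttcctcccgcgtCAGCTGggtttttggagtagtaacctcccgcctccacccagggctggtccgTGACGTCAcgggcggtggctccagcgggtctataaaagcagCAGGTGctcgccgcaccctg
Tgfa: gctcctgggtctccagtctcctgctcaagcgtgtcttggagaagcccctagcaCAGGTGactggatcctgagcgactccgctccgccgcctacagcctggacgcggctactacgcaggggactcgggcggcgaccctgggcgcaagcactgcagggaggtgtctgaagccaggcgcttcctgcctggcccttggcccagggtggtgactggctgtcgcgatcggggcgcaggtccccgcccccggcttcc
Egfr: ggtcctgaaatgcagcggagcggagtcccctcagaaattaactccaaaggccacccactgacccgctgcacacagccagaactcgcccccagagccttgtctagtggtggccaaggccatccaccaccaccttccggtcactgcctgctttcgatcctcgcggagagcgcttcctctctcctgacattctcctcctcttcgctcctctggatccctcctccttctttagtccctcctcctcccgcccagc
The Areg window holds TGACGTCA at 54 to 61 bases upstream of the start, and 1.55% of the 32851 promoter windows in the table hold that motif. It also holds the E-boxes CAGCTG, at 107 to 112 bases, and CAGGTG, at 15 to 20 bases. The Tgfa window has 1 E-box, CAGGTG, at 192 to 197 bases, and the Egfr window has no match to the 3 motifs. An E-box occurs in 66.2% of all windows and the AP-1 letters in 6.75%. Of the 10 genes 6 were in the table, and Erbb3, Ereg, Hbegf and Nrg1 were not. Erbb2, which was within 2-fold of WT, has 1 E-box, and Btc, which was higher in BM than in WT, has 3. Errfi1, at the start site 150855070 of chromosome 4, also has TGACGTCA, at 44 to 51 bases upstream, and stood within 2-fold of WT in both mutants. Its other start site, 150853796, has no TGACGTCA but has 1 E-box, CATATG, at 55 to 60 bases.

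**Figure D1:**
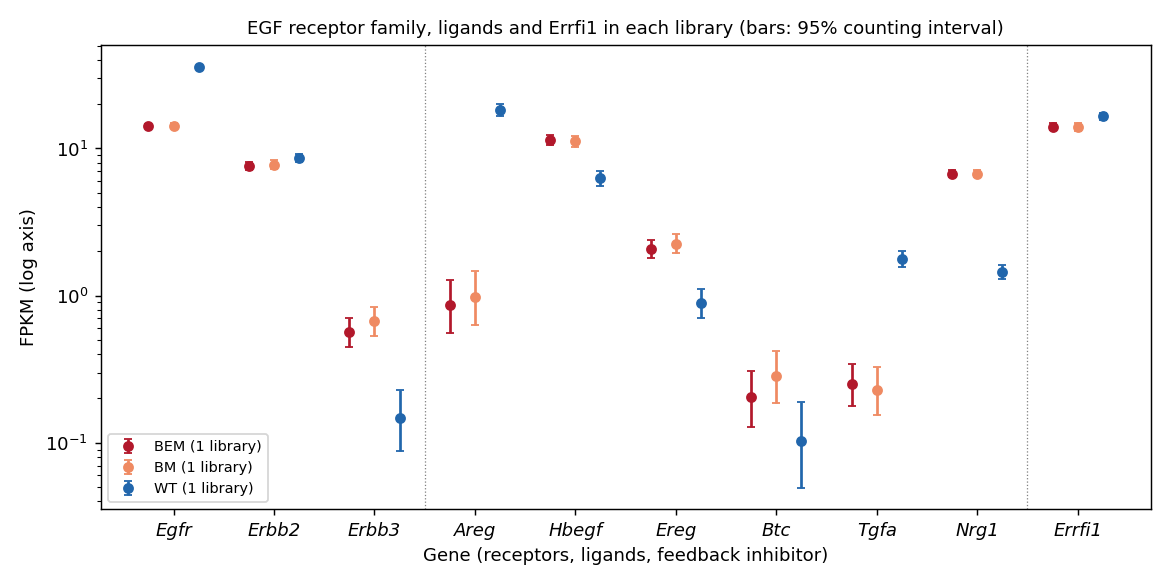
FPKM of each of the 10 genes (log axis) in the BEM, BM and WT libraries, with 95% counting intervals from the recovered reads; dotted lines part receptors, ligands and the feedback inhibitor. BEM and BM lie together for every gene shown, while Areg, Tgfa and Egfr are highest in WT, and Nrg1, Erbb3, Ereg and Hbegf are lowest in WT.

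Among the receptors, Egfr was lower in both mutants and was the most abundant member in WT, while in BEM and BM its level was not separable from that of Errfi1. Egfr (ENSMUSG00000020122, on chromosome 11 from 16752203 to 16918158, plus strand, GRCm38) stood at 14.2 FPKM in BEM, 14.3 FPKM in BM and 35.7 FPKM in WT. WT alone was high, and the counting intervals of BEM and BM overlapped each other and not that of WT. These levels rested on 3837 reads in BEM, 3263 in BM and 8721 in WT. The level was 2.51-fold lower in BEM than in WT (2.42 to 2.61, 95% counting interval) and 2.49-fold lower in BM than in WT (2.40 to 2.60). In bulk RNA of a mixed culture, fewer cells that express a gene and less RNA per cell cannot be told apart.

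Erbb2, the partner receptor, differed little between the lines. It was measured at 7.63 FPKM in BEM, 7.77 FPKM in BM and 8.67 FPKM in WT. BEM was 1.14-fold lower than WT (1.04 to 1.24) and BM was 1.12-fold lower (1.02 to 1.23). The log2 ratios of -0.17 for BEM and -0.15 for BM compare with medians of -0.067 and -0.08 over all measured genes.

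Erbb3, the neuregulin receptor with weak kinase activity, was low in every library and higher in both mutants. Its level was 0.565 FPKM in BEM, 0.669 FPKM in BM and 0.147 FPKM in WT, from 81, 81 and 19 reads in that order. Both mutant libraries were high and WT low, with no overlap of their counting intervals. The ratio to WT was 3.86 for BEM (2.32 to 6.74) and 4.57 for BM (2.75 to 7.98). With a mean of 0.460 FPKM, Erbb3 fell under the filter on low values. Sox10, a transcription factor of neural crest and glia, was at 1.28 FPKM in BEM, 1.34 FPKM in BM and 0.0171 FPKM in WT, the last of these from 1 read. Foxd3, also of the neural crest, was at 0.759 FPKM in BEM, 0.899 FPKM in BM and 0.0200 FPKM in WT. For both genes, chosen after their values were seen, WT was the low library. The whole list of 8 Schwann and neural crest markers summed to 8.31 FPKM in BEM, 8.40 FPKM in BM and 10.1 FPKM in WT, and none of its genes was at 0. Of its 3 measured genes 2, Tfap2a and Ngfr, were at least 2-fold lower in both mutants, beside 15.3% of all measured genes in each. The part of such cells in the Erbb3 level was not tested.

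The ligands of EGFR went both ways, with Areg furthest from WT. Areg (amphiregulin, ENSMUSG00000029378) had 0.864 FPKM in BEM, 0.982 FPKM in BM and 18.3 FPKM in WT. Behind these values were 25 reads in BEM, 24 in BM and 478 in WT. WT was the high library, and its counting interval of 16.7 to 20.0 FPKM lay far above those of the mutants. Areg was 21.1-fold lower in BEM than in WT (14.1 to 33.0) and 18.6-fold lower in BM than in WT (12.3 to 29.3). In the authors' deposited table Areg was the 1 gene of the 10 marked significant against WT, with an FDR of 0.00247 for BEM and 0.00379 for BM. The sources used here do not say how an FDR was reached with 1 library per line.

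Tgfa, which encodes transforming growth factor alpha, was also lower in both mutants. It was at 0.252 FPKM in BEM (39 reads), 0.230 FPKM in BM (30 reads) and 1.77 FPKM in WT (248 reads). The WT library was again the high one, with no overlap of intervals. Tgfa was 7.02-fold lower in BEM (5.0 to 10.1) and 7.71-fold lower in BM (5.27 to 11.7) than in WT. Its mean of 0.752 FPKM left it under the filter, and the authors' deposited table gave it an FDR of 0.0821 for BEM and 0.0682 for BM against WT.

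Hbegf and Ereg were higher in the mutants. Hbegf, heparin-binding EGF-like growth factor, was at 11.5 FPKM in BEM, 11.3 FPKM in BM and 6.26 FPKM in WT. The level was 1.83-fold higher in BEM than in WT (1.60 to 2.10) and 1.80-fold higher in BM (1.56 to 2.07), which is short of 2-fold. Its reads rest on a gene length of 2373 bases, the shortest that made all 3 values whole, because the annotated exons gave none; reads of the other 9 members rest on the annotated exon length. Ereg (epiregulin) was at 2.08 FPKM in BEM (204 reads), 2.26 FPKM in BM (188 reads) and 0.888 FPKM in WT (79 reads). WT was the low library for both genes, and its intervals did not overlap those of BEM and BM. Ereg was 2.34-fold higher in BEM (1.79 to 3.07) and 2.55-fold higher in BM (1.95 to 3.36) than in WT. On the log2(FPKM + 0.5) scale these become 0.89 and 0.99, just under the 2-fold line, because the pseudocount pulls low genes towards 0.

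Btc (betacellulin) was the scarcest ligand among the members in BEM and WT. It was at 0.204 FPKM in BEM (22 reads), 0.286 FPKM in BM (26 reads) and 0.103 FPKM in WT (10 reads). The ratio to WT was 1.99 for BEM, with an interval of 0.905 to 4.71 that includes 1, and 2.79 for BM (1.30 to 6.48). A difference between BEM and WT was thus not detectable at this depth.

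Areg, Ereg, Btc and Epgn, which encodes epigen, lie within 376 kb of chromosome 5 (GRCm38), in a span that holds 7 of the genes in the tables. Ereg, from 91074622 to 91093646 on the plus strand, ends 46.0 kb before Areg, from 91139599 to 91148432 on the same strand. These neighbours went opposite ways, Areg lower and Ereg higher in both mutants than in WT. Btc, on the minus strand from 91357261 to 91402994, lies 208.8 kb further on. Epgn, 39.4 kb before Ereg, had 0 reads in BEM, 2 in BM and 3 in WT, too few to compare.

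Added up per length, the 5 EGFR ligands among the members came to 14.9 FPKM in BEM, 15 FPKM in BM and 27.3 FPKM in WT. Areg made up 5.81% of that sum in BEM, 6.54% in BM and 66.9% in WT. Hbegf held 77.2% in BEM, 74.9% in BM and 22.9% in WT. Hbegf was thus the leading EGFR ligand transcript in both mutant libraries and Areg in WT. Tgfa accounted for 1.70% in BEM, 1.53% in BM and 6.50% in WT, and Ereg for 14%, 15.1% and 3.26% in that order. Egf, the gene of the growth factor given in the medium, was itself at 0.145 FPKM in BEM, 0.159 FPKM in BM and 0.111 FPKM in WT.

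**Figure D2:**
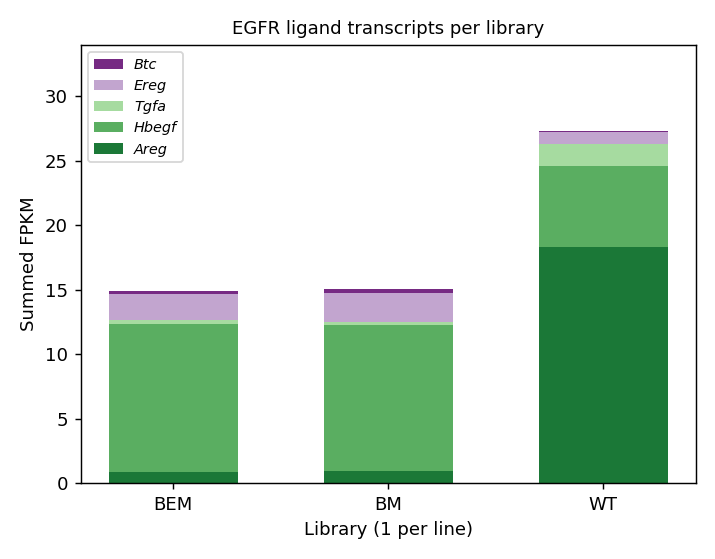
Summed FPKM of the 5 EGFR ligands among the members in the BEM, BM and WT libraries, 1 library each, stacked by gene from 0. Areg fills most of the WT bar (66.9%) and Hbegf most of the BEM and BM bars (77.2% and 74.9%).

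Nrg1, the neuregulin gene, was higher in both mutants and had the most reads of any ligand in BEM and BM. It stood at 6.75 FPKM in BEM (1665 reads), 6.73 FPKM in BM (1400 reads) and 1.45 FPKM in WT (324 reads). Both mutant libraries were high, and their intervals of 6.43 to 7.09 FPKM in BEM and 6.38 to 7.09 FPKM in BM lay above that of WT, 1.30 to 1.62 FPKM. Nrg1 was 4.65-fold higher in BEM (4.13 to 5.26) and 4.63-fold higher in BM (4.10 to 5.24) than in WT. The authors' deposited table gave it an FDR of 0.13 in both comparisons. The gene makes many isoforms with different ends, and the FPKM divides by the union of all of them, 10351 bases, so the level of any 1 isoform is not resolved. Of the receptors that bind neuregulin, Erbb4 was scarcer than Erbb3 in BEM and BM but not in WT, at 0.0952 FPKM in BEM, 0.0483 FPKM in BM and 0.184 FPKM in WT. Erbb4 was 1.93-fold lower in BEM (1.19 to 3.19) and 3.81-fold lower in BM (2.0 to 7.87) than in WT, from 28, 12 and 49 reads in BEM, BM and WT. The neuregulin genes Nrg2, Nrg3 and Nrg4 stayed under 1 FPKM in each library, with at most 29 reads.

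Errfi1, which encodes MIG6, a protein that binds and inhibits the EGFR kinase and whose transcript is induced by EGF signalling, differed little. It was at 14.1 FPKM in BEM, 14 FPKM in BM and 16.5 FPKM in WT. BEM was 1.17-fold lower than WT (1.08 to 1.26), and BM was 1.17-fold lower (1.08 to 1.28). Its log2 ratios of -0.22 for BEM and -0.23 for BM lie within 2-fold.

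**Figure D3:**
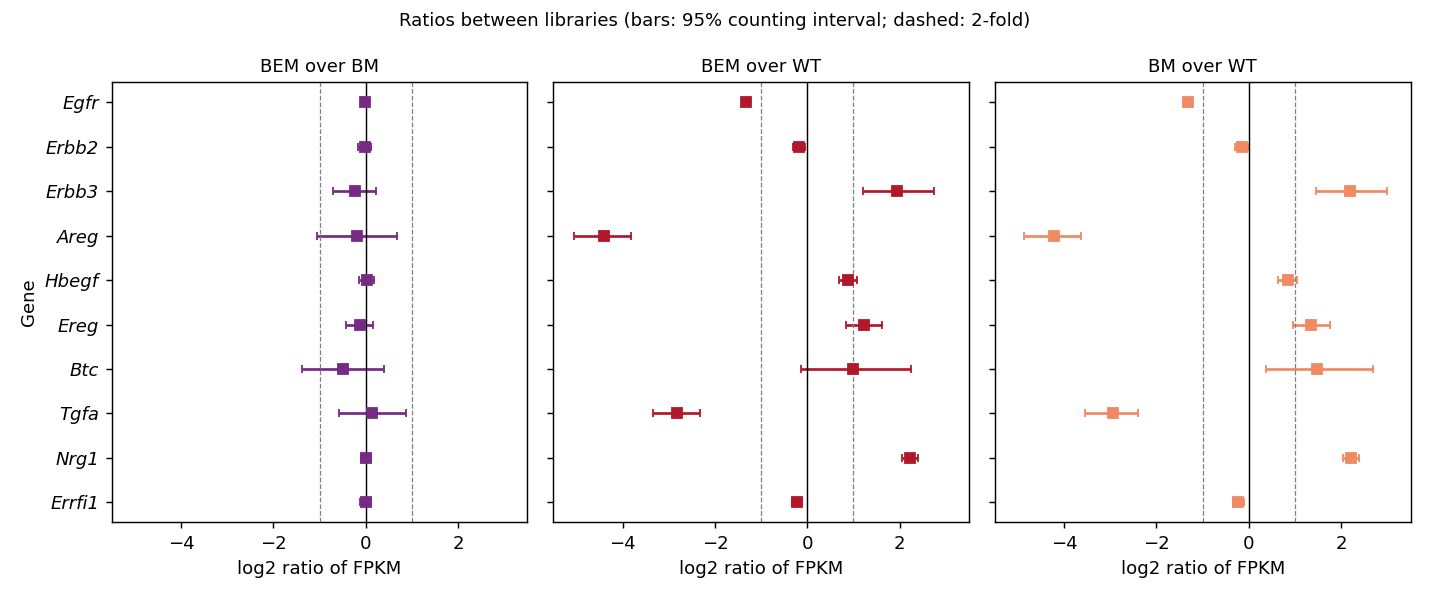
Log2 ratio of FPKM between libraries for each of the 10 genes, with 95% counting intervals, for BEM over BM, BEM over WT and BM over WT; dashed lines mark 2-fold. In the left panel every interval includes 0, and in the others Areg, Tgfa and Egfr lie left of the lower dashed line and Nrg1, Erbb3 and Ereg right of the upper one, as does Btc for BM over WT.

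Across the members, 7 of the 10 reached a mean of 1 FPKM and 3 (Erbb3, Btc and Tgfa) did not. On the log2(FPKM + 0.5) scale 3 of these 7 were at least 2-fold apart between BEM and WT, and 3 between BM and WT, beside 25.9% and 25.8% of all measured genes. In each comparison Egfr and Areg were the lower ones, beside 15.3% of all measured genes, and Nrg1 the higher one, beside 10.7% for BEM and 10.5% for BM. A count of 3 among 7 genes is too small to be set apart from that background. Their median log2 ratio was -0.17 for BEM and -0.15 for BM, beside -0.067 and -0.08 over all measured genes.

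Between BEM and BM, 0 of the 7 measured members were 2-fold apart, beside 0.784% of all measured genes, and for all 10 members the counting interval of the ratio included 1. The narrowest intervals belonged to Egfr, with a ratio of 0.993 (0.948 to 1.04), and Nrg1, with 1.00 (0.935 to 1.08). Areg had a ratio of 0.880, and its interval of 0.482 to 1.61 leaves room for a difference of that size. No replicate spread exists for either line, so these intervals do not show that the lines act alike.

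The order of levels per length differed between the mutants and WT. In BEM and in BM the order was Egfr, Errfi1, Hbegf, Erbb2, Nrg1, Ereg, Areg and Erbb3, with Egfr not separable from Errfi1, nor Areg from Erbb3, by their counting intervals. The last 2 places were held by Tgfa and Btc, in that order in BEM and in the reverse order in BM, with overlapping intervals. In WT the order was Egfr, Areg, Errfi1, Erbb2, Hbegf, Tgfa, Nrg1, Ereg, Erbb3 and Btc. There the intervals of Areg and Errfi1, of Tgfa and Nrg1, and of Erbb3 and Btc overlapped. Areg thus held rank 2 in WT and rank 7 in both mutants.

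Genes with the most similar course over the 3 libraries were sought for the 3 members with the highest mean, by the Euclidean distance of centred log2(FPKM + 0.5) values. Nearest to Egfr were Sil1 (distance 0.0017), Bche (0.0078) and Atrnl1 (0.0089), all highest in WT, with Sil1 at 16.9 FPKM in BEM, 17.0 FPKM in BM and 42.3 FPKM in WT. Nearest to Errfi1 were Tnpo1, Trabd and Itfg1, and nearest to Hbegf were Ikbip, Xylt1 and Slc7a1. Only 3 libraries enter the distance, and 208 genes lay within 0.1 of Egfr, 1047 of Errfi1 and 423 of Hbegf, so such likeness is common.

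Of 72 further genes of the pathway in 5 lists, 65 reached a mean of 1 FPKM. At least 2-fold apart from WT were 21 in BEM (4 higher, 17 lower) and 20 in BM (4 higher, 16 lower). These are 32.3% and 30.8% of the measured ones, beside 25.9% and 25.8% of all measured genes.

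The lower genes were mostly ERK feedback and target genes, transcripts induced by ERK signalling from EGF, FGF and other receptors. Of 18 such genes, all measured, 14 were at least 2-fold lower in BEM and 13 in BM, and 0 higher in either, beside 15.3% lower and 10.7% (BEM) or 10.5% (BM) higher among all measured genes. Their median log2 ratio was -1.74 for BEM and -1.58 for BM. The list was chosen with earlier results of these data known, so its count is no test against that background. Spry4, an inhibitor of receptor signalling, was at 3.85 FPKM in BEM, 3.62 FPKM in BM and 41.2 FPKM in WT. Ier3, an immediate early gene, was at 14.5 FPKM in BEM, 14.6 FPKM in BM and 120.4 FPKM in WT. WT alone was high for both, and Ier3 was 8.29-fold lower in BEM (7.46 to 9.24). Etv4, an ETS transcription factor, was at 4.98 FPKM in BEM, 5.49 FPKM in BM and 35.1 FPKM in WT. Dusp6, a phosphatase of ERK, was at 11.5 FPKM in BEM, 12 FPKM in BM and 71.8 FPKM in WT. Fosl1 was the 1 gene of the 18 with positive log2 ratios, at 13.0 FPKM in BEM, 11.2 FPKM in BM and 7.20 FPKM in WT. Errfi1, itself an ERK-responsive gene, lay within 2-fold, as given above.

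Genes that signal directly below the receptors stayed nearer to WT. Of 26 adaptor and signalling genes, 25 were within 2-fold of WT in BEM and 25 in BM, with a median log2 ratio of 0.04 in both. The exception was Hras, a RAS GTPase, at 18.2 FPKM in BEM, 17.3 FPKM in BM and 6.35 FPKM in WT. Among all measured genes, 25.9% (BEM) and 25.8% (BM) were at least 2-fold apart from WT. Akt1, a kinase below PI3 kinase, was at 103 FPKM in BEM, 103 FPKM in BM and 54.9 FPKM in WT. The docking protein gene Gab1 was at 5.84 FPKM in BEM, 5.84 FPKM in BM and 10.7 FPKM in WT.

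Of 12 genes listed as negative regulators of the receptors, 3 were lower and 1, Lgals1, was higher in each mutant. That share is near the 25.9% (BEM) and 25.8% (BM) of all measured genes that were 2-fold apart. Lrig1, which promotes breakdown of the receptors, was at 19.0 FPKM in BEM, 19.7 FPKM in BM and 62.5 FPKM in WT. Socs3, an inhibitor of cytokine signalling, was at 8.58 FPKM in BEM, 9.05 FPKM in BM and 32.1 FPKM in WT. The receptor phosphatase gene Ptprj was at 2.99 FPKM in BEM, 3.16 FPKM in BM and 10.1 FPKM in WT. All 3 were highest in WT. Lgals1, a galectin gene abundant in mesenchyme, was 2.41-fold higher in BEM (2.36 to 2.47) and 2.40-fold higher in BM (2.34 to 2.45). The sources used here do not show that Lgals1 acts on these receptors.

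Among 10 genes of ligand shedding, 9 were measured, 2 of them higher and 0 lower in each mutant, beside 10.7% (BEM) and 10.5% (BM) higher and 15.3% lower among all measured genes. Adam12, a metalloprotease able to cut HB-EGF, was at 32.1 FPKM in BEM, 32.5 FPKM in BM and 3.71 FPKM in WT. Timp3, an inhibitor of such proteases, was at 126 FPKM in BEM, 128 FPKM in BM and 18.1 FPKM in WT. Both were thus low in WT alone. Rhbdf1 and Rhbdf2, which encode the iRhom proteins that carry ADAM17 to the cell surface, were 1.96-fold and 1.77-fold lower in BEM and 1.93-fold and 1.74-fold lower in BM than in WT. Adam17 and Adam10, the main proteases that free EGFR ligands, named after their values were seen, were at 10.3 and 34.4 FPKM in BEM, 10.3 and 34 FPKM in BM, and 11.5 and 34.1 FPKM in WT.

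**Figure D4:**
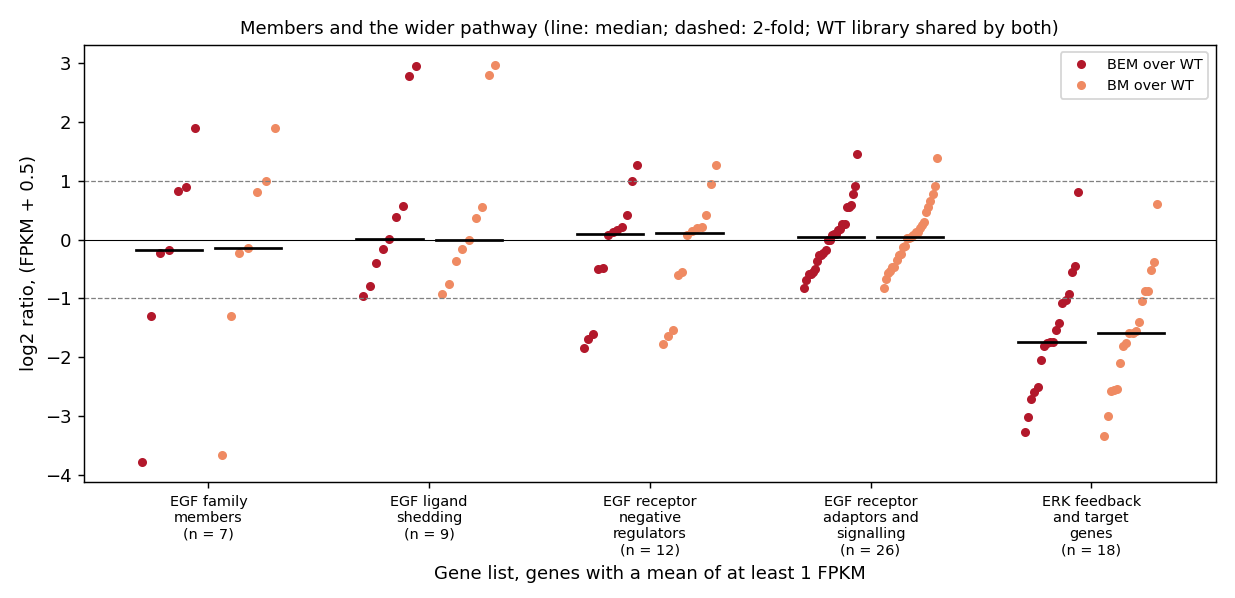
Log2 ratio to WT on the (FPKM + 0.5) scale for measured genes of the family and of 4 pathway lists, in BEM and BM; each point is a gene, the line is the list's median, and dashed lines mark 2-fold. The ERK feedback and target genes have medians of -1.74 in BEM and -1.58 in BM, while the adaptor and signalling genes centre on 0.04 in both.

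Markers of other cell types differed between the libraries along with these genes. Their counts past 2-fold stand beside 10.7% (BEM) and 10.5% (BM) higher and 15.3% lower among all measured genes. The 10 macrophage markers summed to 1857 FPKM in BEM, 1809 FPKM in BM and 13.1 FPKM in WT, with 9 of 9 measured genes higher in each mutant. A gene near 0 in WT reaches the filter only through the mutants, so that count was largely fixed by the filter. Csf1r, for example, was at 14.5 FPKM in BEM, 15.1 FPKM in BM and 0.0190 FPKM in WT. C1qa and Itgam were at 0 in WT. The 12 smooth muscle and fibroblast markers summed to 8512 FPKM in BEM, 8589 FPKM in BM and 2411 FPKM in WT, with 9 of 12 higher in each mutant and none at 0. Epithelial markers, 8 genes, summed to 8.60 FPKM in BEM, 8.43 FPKM in BM and 39.5 FPKM in WT, with 3 of 4 measured genes lower in both mutants. Krt5 was at 0 in both mutants and had 1 read in WT. The WT sum was mostly Krt18, at 3.93 FPKM in BEM, 3.76 FPKM in BM and 27.2 FPKM in WT. Epcam and Cdh1 were under 1 FPKM in each library. Krt14 and Krt19 went the other way, Krt19 being at 3.17 FPKM in BEM, 2.73 FPKM in BM and 2.05 FPKM in WT. The other 3 genes of the smooth muscle and fibroblast list were within 2-fold and lower in both mutants, such as Dcn, a proteoglycan gene, at 176 FPKM in BEM, 176 FPKM in BM and 239 FPKM in WT. The 8 endoderm and liver markers summed to 0.201 FPKM in BEM, 0.171 FPKM in BM and 32.5 FPKM in WT. The WT sum was mostly Fgb, at 15.7 FPKM, and Foxa1, at 12.6 FPKM. The 3 measured genes, Fgb, Foxa1 and Apoa1, were lower in each mutant but passed the filter only through WT. They were at 0 in BEM, as were Sox17 and Ttr, while Foxa2, Sox17 and Ttr were at 0 in BM. In WT, Alb was at 0 and Sox17 and Ttr had 1 read each. Afp, with at most 9 reads, was higher in the mutants. The 8 neuronal markers summed to 34 FPKM in BEM, 35.5 FPKM in BM and 13.8 FPKM in WT, and of the 3 measured ones 2 were higher and 1 lower in each mutant. That sum was mostly Gap43, a growth cone gene, at 26.7 FPKM in BEM, 27.4 FPKM in BM and 0.853 FPKM in WT, while the neurofilament gene Nefm was at 0.109 FPKM in BEM, 0.0946 FPKM in BM and 6.71 FPKM in WT. Their part in the levels of Egfr, Areg, Tgfa, Nrg1, Hbegf and Ereg was not tested.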

How the data were processed

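RNA-seq tables of 3 libraries, BEM, BM and WT, 1 per line, were used, each table pairing 2 libraries over 47725 genes; 4 further lines per table are not analysed here. Expression was deposited as FPKM, per the file headers. The authors' log2 ratio and their p-value and FDR were deposited as well, per the file headers. The submitters' processing notes name TopHat2, HTSeq, edgeR and GRCm38 without roles or versions. The sources used here do not say whether chicken reads were removed.

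Genes averaging 1 FPKM or more (12875) were called measured. Ratios were log2(FPKM + 0.5), which understates changes of low genes, and 2-fold was the threshold; folds of single genes are ratios of FPKM. No test was run. Library totals were recovered from the pile-up of values worth 1 read at GENCODE vM21 exon lengths. Reads were then whole to within 0.001 in all 3 libraries for 72.1% of measured genes at that length; for listed genes where it failed, the shortest length from 200 bases that gave whole reads was used. Intervals are exact (95%, Clopper-Pearson for ratios, Poisson for levels) and cover counting error only. The recovery of totals and reads was tested on simulated data in which every gene had its annotated length. The search for the shortest length was not tested. Pathway genes were named as up to 4 per list with the largest ratio to WT among those of at least 5 FPKM in 1 library; some list genes are not reported here by name. Alternatives were scaling by the median of ratios or the upper quartile, pseudocounts of 5 and 0.05, no filter or a mean of 10 FPKM, and the authors' ratios. The members and lists were chosen with earlier results of these data known. Python 3.11.15, pandas 2.3.3, numpy 2.4.6 and scipy 1.17.1 were used.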

Additional observations from a re-analysis of the deposited data

How the results depend on the processing

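The count of members 2-fold apart was 3 for BEM and 3 for BM against WT, and ranged from 2 (pseudocount of 5, which left Nrg1 under the line) to 4 (BM with either scaling; both with a pseudocount of 0.05 or the authors' ratios, which took in Ereg; both with no filter, which took in Tgfa). With a mean of at least 10 FPKM it was 1 for BEM and 1 for BM, since 2 members remained, Egfr and Errfi1. Between BEM and BM it was 0 under each setting. Pathway genes 2-fold apart from WT ranged from 17 to 22. Of 150 single-member ratios under 5 other settings, 0 of those past 2-fold changed sign. Of these 150, 123 moved on the log2 scale by no more than the mean reach of their counting interval to either side. Median-of-ratios scaling would move log2 ratios to WT up by 0.076 for BEM and 0.086 for BM. Egfr then stood at -1.22 and -1.20. No paired analysis was possible because each line has 1 library and the labels give no replicate numbers. Depth limits Areg, Tgfa, Btc and Erbb3, which had at most 81 reads in each mutant library.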

Other observations

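Over the whole table BEM and BM lay far closer to each other than to WT, though further apart than counting error alone would leave them. Among 9280 measured genes with whole reads at annotated length, the 95% counting interval of the ratio excluded 1 for 10.7% between BEM and BM. Counting error alone would give a smaller share than that. The share was 80.1% between BEM and WT and 79.5% between BM and WT. The difference of each mutant from WT therefore rests on the 1 WT library, and the mutants do not replicate each other in a way that separates genotype from culture.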
